A study of Homo sapiens with 6 samples.

Results

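The genes described here run the cholesterol economy of the cell: 20 genes of cholesterol synthesis and 13 genes that sense, move, store or export sterol. They were chosen by name, by matching the gene IDs of the deposited transcript table to current symbols and summing the estimated counts of each gene's transcripts. All 33 were found among the 58174 gene IDs of the table, and all 33 were among the 14524 genes that averaged at least 1 CPM, the count after scaling every column to one common size, over the columns. RNA came from MDA-MB-231, an established human triple-negative breast cancer line. The groups were KO1 and KO2, both with the genotype ARID1A knockout, and the control group NC. ARID1A encodes the DNA-contacting subunit that marks the canonical BAF form of the SWI/SNF chromatin remodellers. The labels list 6 samples, 2 per group, from a total RNA library protocol that keeps strand. They do not say whether KO1 and KO2 are clones, pools of cells or different guides, and they give no method of knockout and no description of the control.

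The table held 1 column per group and no column per replicate, so the spread between replicates is unknown, and each value below stands for 1 column. Columns totalled 25801499 estimated counts in KO1, 26144758 in KO2 and 26798753 in NC. ARID1A itself was at 45.7 CPM in KO1, 83.9 CPM in KO2 and 77.3 CPM in NC, so the RNA level was lower in the column labelled KO1 and not in the column labelled KO2. A frameshift allele need not lower the RNA, and the summed count does not show whether the protein was lost. Genes of the mitochondrial genome took 20.5% of the counts in KO1, 16.9% in KO2 and 12.8% in NC. VIM, CD44 and EGFR, which this mesenchymal line expresses, were all present, with VIM at 4719, 2925 and 3411 CPM in KO1, KO2 and NC. ESR1 had 14 estimated counts in KO2 and 0 in KO1 and NC, and PGR had 0 in every column. The 4 leukocyte markers summed to 19.3 CPM in KO1, 56.8 CPM in KO2 and 50.1 CPM in NC, nearly all of it CD68 and CD14, which macrophages share with many other cells. Their part in the results below was not tested. The leukocyte-defining PTPRC was at 0 in KO1 and NC and at 4 counts in KO2. The 5 fibroblast markers summed to 50.7, 39.3 and 32.2 CPM, and the 4 endothelial markers to 3.26, 7.82 and 4.29 CPM, in KO1, KO2 and NC. DCN was at 0 throughout, and 2 of 5 fibroblast and 2 of 4 endothelial markers reached the 1 CPM average. In both pairs, 1 marker was above NC in KO1 and 1 below, which the sums hide. COL1A1, most of the fibroblast sum, had 49.8, 36.3 and 19.8 CPM in KO1, KO2 and NC. PDGFRB had 0.435, 2.39 and 10.8 CPM in the same order. The endothelial PECAM1 had 0.609, 5.93 and 3.36 CPM, and KDR 2.65, 1.68 and 0.786 CPM, in KO1, KO2 and NC.

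As background, cells build cholesterol from cytosolic acetyl-CoA through mevalonate, farnesyl pyrophosphate, squalene and lanosterol, and the genes of these steps are switched together by the SREBP transcription factors. SREBF2 encodes the member that acts mainly on sterol genes, and SREBF1 the members that act mainly on fatty acid genes. When membranes hold enough sterol, SCAP and the INSIG proteins keep the SREBP precursors in the endoplasmic reticulum, and when sterol falls, SCAP carries them to the Golgi to be cut and released. The LXR receptors NR1H2 and NR1H3 work on the opposite side: they bind oxidised cholesterol and switch on export, including the membrane pumps ABCA1 and ABCG1.

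Most of the synthesis genes carry a CCAAT box near their start sites. In the RefSeq promoter table (GRCh38.p14, 250 bases before to 50 bases after each start), 29 of the 33 genes had at least 1 window, 39 windows in all. The NF-Y motif CCAAT, searched on both strands, was present in at least 1 window of 14 of 17 synthesis genes (82.4%) and of 6 of 12 control, transport and efflux genes (50%). It was present for 39.7% of all 27305 genes in the table, in 34.6% of its 35116 windows, and for 42.1% of its protein-coding genes. NF-Y is a known partner of the SREBPs on DNA. The sterol regulatory element was searched as the single string TCACNCCAC on both strands. This string was present for 1 of the 29 genes, SREBF2, and for 1.39% of all genes in 1.13% of windows. Elements with other letters or outside the window were not searched, so a missing match does not show that a gene lacks the element. No match of one motif overlapped a match of the other. Genes with several windows have more chances of a match, and a match is a description and not a bound site. The 250 bases before the start, read 5′ to 3′ on the strand of the gene with both motifs in capitals, are shown for SREBF2 (chr22:41832855-41833104, plus strand), for HMGCS1, whose KO1 level was among those farthest below NC (chr5:43313413-43313662, minus strand), and for MVD, the synthesis gene below NC by the size rule in both knockout columns (chr16:88663092-88663341, minus strand).
SREBF2: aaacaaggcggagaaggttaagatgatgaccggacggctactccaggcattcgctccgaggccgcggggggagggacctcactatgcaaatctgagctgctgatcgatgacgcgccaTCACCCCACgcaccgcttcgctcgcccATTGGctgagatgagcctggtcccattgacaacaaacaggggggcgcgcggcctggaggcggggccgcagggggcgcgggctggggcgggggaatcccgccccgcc
HMGCS1: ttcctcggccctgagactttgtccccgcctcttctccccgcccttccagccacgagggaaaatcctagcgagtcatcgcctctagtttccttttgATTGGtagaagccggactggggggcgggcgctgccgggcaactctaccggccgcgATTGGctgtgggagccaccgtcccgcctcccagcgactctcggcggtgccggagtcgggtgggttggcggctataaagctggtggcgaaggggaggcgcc
MVD: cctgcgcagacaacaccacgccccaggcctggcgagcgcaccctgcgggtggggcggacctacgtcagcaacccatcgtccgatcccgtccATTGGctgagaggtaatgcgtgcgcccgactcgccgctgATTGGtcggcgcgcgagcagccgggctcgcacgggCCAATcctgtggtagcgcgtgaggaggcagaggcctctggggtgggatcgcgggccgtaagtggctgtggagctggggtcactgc
The SREBF2 window held the sterol element 133 bases before the start and CCAAT on the opposite strand 106 bases before it. The HMGCS1 window shown held CCAAT on the opposite strand at 155 and 100 bases before the start. The other HMGCS1 window (chr5:43313132-43313431) held neither motif and is not shown. MVD held CCAAT 159 and 120 bases before the start on the opposite strand and 85 bases before it on the gene's own strand.

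With 1 column per group, genes were compared by a size rule that has no p-value. A gene passed when the log2 ratio of its CPM (after TMM scaling, with 2 counts added) was at least 1 in size, that is at least 2-fold, and when the exact 95% interval of the ratio excluded equality. These intervals cover counting error only and say nothing of the spread between cultures. The only test joined both knockout columns as 1 group of 2 against NC (two-sided quasi-likelihood F test of edgeR, 1 residual degree of freedom). It called 27 of 18289 genes (0.148%) at a Benjamini-Hochberg adjusted p under 0.05, and 0 of the 33 cholesterol genes. At an unadjusted p under 0.05 it picked 4 of the 33, ABCG1, ABCA1, MVD and ACAT2, against 1409 genes (7.7%) of all tested. Adjusted p over all genes lay between 0.310 and 0.998 for the 33. An exact permutation of 2 columns against 1 cannot give a p under 0.333. All statements on higher or lower levels below therefore describe these 3 columns.

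The synthesis genes were lower in KO1 than in NC along most of the pathway, and in KO2 19 of the 20 passed the size rule in neither direction. In KO1 over NC, 11 of 20 passed the size rule as lower (ACLY, ACAT2, HMGCS1, MVK, MVD, IDI1, FDPS, FDFT1, LSS, MSMO1 and HSD17B7), where 17.4% of all measured genes did so. None of the 20 passed as higher, against 15.4% of all measured genes. The median log2 ratio of the 20 was -1.07, against -0.01 over all measured genes, and 17 of the 20 ratios were below zero. In KO2 over NC, 1 of 20 passed as lower (MVD; 9.98% of all measured genes) and 0 as higher (11.0%), with a median of -0.13 against 0.00. Between the columns of the same labelled genotype, KO2 over KO1, 8 of 20 passed as higher (ACAT2, HMGCS1, MVD, IDI1, FDFT1, MSMO1, HSD17B7 and SC5D; 14.9% of all measured genes) and 0 as lower (11.2%), with a median of 0.88 against 0.04. Over coding transcripts alone MVD, FDFT1 and HSD17B7 did not pass in KO2 over KO1 (log2 ratios 0.14, 0.75 and 0.68) and LSS did (2.08). With TMM over nuclear protein-coding genes ACAT2 and MVD were just short in KO2 over KO1 (log2 ratios 0.99 and 0.98). Of the 20, 7 both passed as lower in KO1 than NC and as higher in KO2 than KO1, a pattern of 9.47% of all measured genes, in ratios that share KO1. KO1 was the lowest of the 3 columns for 16 of the 20 genes, or 80%, as it was for 37.8% of all measured genes. The TMM-scaled CPM of the 20 genes summed to 927 in KO1, 1704 in KO2 and 1950 in NC. Per transcript length, their deposited TPM summed to 527 in KO1, 1291 in KO2 and 1426 in NC. On that scale the median of all measured genes, as log2(TPM + 1), was itself -0.33 in KO1 over NC. In these bulk samples, less RNA per cell and fewer cells that express the genes cannot be told apart.

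**Figure D1:**
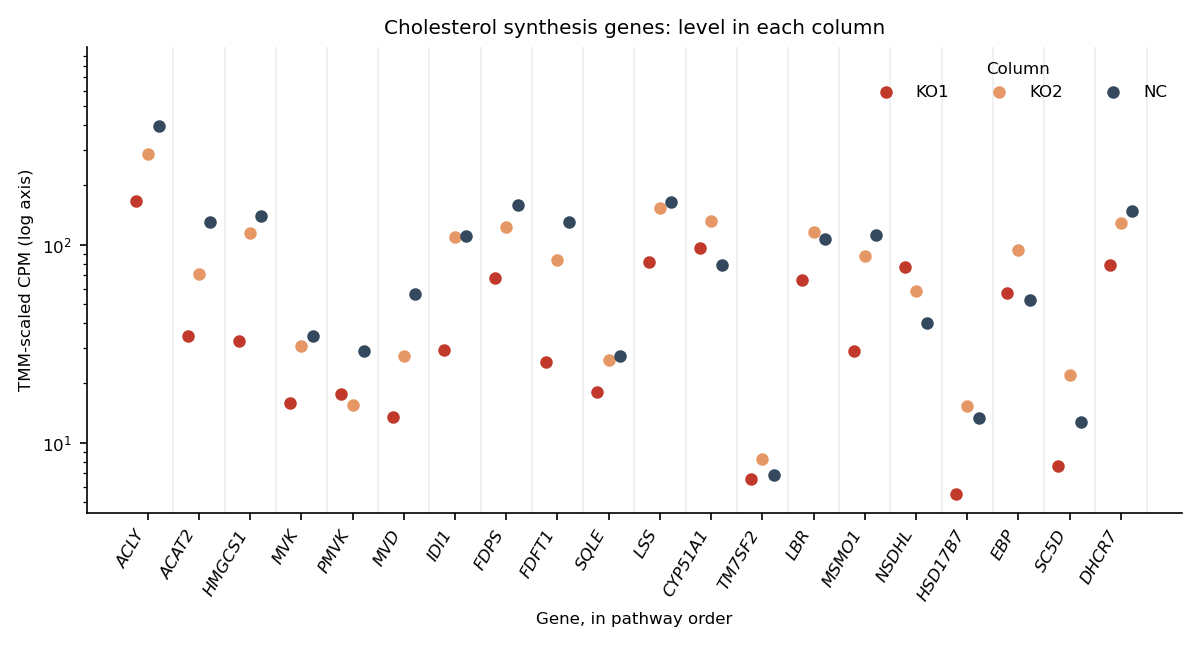
Level of each of the 20 cholesterol synthesis genes, in pathway order on the horizontal axis, as TMM-scaled CPM on a log vertical axis; each point is 1 deposited column (KO1, KO2, NC) and there are no error bars because there is 1 column per group. From ACLY to LSS the KO1 point is the lowest for 10 of 11 genes, PMVK being the exception, while among the later genes CYP51A1, NSDHL and EBP have a KO1 point above NC.

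At the entrance of the pathway both genes were lowest in KO1, intermediate in KO2 and highest in NC. ACLY, which splits citrate to supply cytosolic acetyl-CoA, had 167 CPM in KO1, 287 CPM in KO2 and 398 CPM in NC. Its KO1 level was 2.39-fold below NC, with a counting interval of 2.30 to 2.48. ACAT2, the cytosolic thiolase that joins 2 acetyl-CoA (chr6:159760328-159779055, hg38 as deposited), had 34.7 CPM in KO1, 71.0 CPM in KO2 and 131 CPM in NC. It was 3.76-fold lower (3.48 to 4.07) in KO1 than NC and 1.84-fold lower (1.74 to 1.95) in KO2 than NC, which is short of the 2-fold line. ACAT2 lies on chromosome 6, where the median gene was above NC in both knockout columns (log2 ratio 0.27 in KO1 and 0.27 in KO2). For ACAT2 the joint edgeR test gave an adjusted p = 0.637.

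From mevalonate to farnesyl pyrophosphate, 5 of 6 genes passed as lower in KO1 (17.4% of all measured genes), with a median log2 ratio of -1.56, and 1 of 6 in KO2 (9.98% of all measured genes), with a median of -0.32. All 6 were below NC in both knockout columns. HMGCS1, which makes HMG-CoA (chr5:43289395-43313512), had 32.6 CPM in KO1, 114 CPM in KO2 and 139 CPM in NC. Its KO1 level was 4.26-fold below NC (interval 3.94 to 4.61), while its KO2 level lay 1.21-fold below NC and 3.51-fold above KO1. The KO2 column thus stood near NC for this gene, and KO1 stood apart from both. The kinases that phosphorylate mevalonate step by step differed from each other: MVK had 15.8 CPM in KO1, 30.6 CPM in KO2 and 34.6 CPM in NC, whereas PMVK, the second kinase, had 17.6 CPM in KO1, 15.5 CPM in KO2 and 28.9 CPM in NC. PMVK was the only gene of the segment with its lowest level in KO2, and it passed the rule in neither column. Over transcripts annotated as protein-coding alone, the MVK log2 ratio in KO1 was -0.48, against -1.13 over all transcripts, and MVK did not pass.

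MVD, the decarboxylase that yields isopentenyl pyrophosphate (chr16:88651935-88663161), was the one synthesis gene lower by the size rule in both knockout columns. It had 13.5 CPM in KO1, 27.5 CPM in KO2 and 56.5 CPM in NC, on estimated counts of 310 in KO1, 770 in KO2 and 1583 in NC. The KO1 level was 4.2-fold below NC (3.71 to 4.75) and the KO2 level 2.06-fold below NC (1.89 to 2.24). Being lower in both was true of 5.65% of all measured genes, and both ratios share the NC column. In the joint edgeR test MVD had an adjusted p = 0.615, and on deposited TPM with 1 added its KO2 log2 ratio was -0.97, short of the line. IDI1, the isomerase that follows, had 29.5 CPM in KO1, 109 CPM in KO2 and 111 CPM in NC, so KO2 and NC were nearly equal and KO1 was 3.76-fold below NC. FDPS, which builds farnesyl pyrophosphate, the branch point to both sterols and prenyl groups, had 68.3 CPM in KO1, 123 CPM in KO2 and 159 CPM in NC and was 2.32-fold lower (2.19 to 2.46) in KO1 than NC. Processed pseudogene copies of FDPS exist, and how the authors' counting split reads among them is not stated.

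Around squalene, the first gene committed to sterols showed the lowest ratio of the whole set. FDFT1, squalene synthase (chr8:11795573-11839309), had 25.5 CPM in KO1, 84.1 CPM in KO2 and 130.2 CPM in NC, on estimated counts of 586 in KO1, 2355 in KO2 and 3646 in NC. This was 5.11-fold lower (4.68 to 5.59) in KO1 than NC, and KO2 was 1.55-fold below NC and 3.30-fold above KO1. Over coding transcripts alone FDFT1 was also past the line in KO2, at a log2 ratio of -1.37 over NC against -0.63 over all transcripts. SQLE, the squalene epoxidase that is a flux-controlling step of the pathway, had 18.1 CPM in KO1, 26.2 CPM in KO2 and 27.4 CPM in NC, a difference of 1.51-fold that did not pass. FDFT1 and SQLE are both on chromosome 8, where the median gene was at a log2 ratio of -0.21 in KO1 and of -0.21 in KO2. LSS, which closes the ring to give lanosterol, had 81.5 CPM in KO1, 154 CPM in KO2 and 164 CPM in NC and sat on the threshold at a log2 ratio of -1.01 in KO1. With TMM scaling over nuclear protein-coding genes its ratio was -0.95 and it no longer passed. DHCR7, at -0.90, and NSDHL, at 0.94, were the genes just outside the threshold in KO1. DHCR7 passed as lower in KO1 with scaling by library size alone (log2 ratio -1.13) and on deposited TPM (-1.62). On both of these scales the median of all measured genes in KO1 was also below NC.

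After lanosterol the genes lay on both sides of NC. Of 9 genes, 2 passed as lower in KO1 (17.4% of all measured genes) and 7 passed in neither direction, with a median log2 ratio of -0.69. In KO2, 0 passed as lower (9.98%) or higher (11.0%), with a median of 0.27. These counts are near the shares over all genes, and no difference between segments of the pathway was tested. MSMO1, the oxidase that removes methyl groups from the sterol ring (chr4:165327623-165343160), followed the earlier steps with 28.9 CPM in KO1, 87.3 CPM in KO2 and 112 CPM in NC, 3.86-fold lower (3.55 to 4.2) in KO1 than NC. HSD17B7, the ketoreductase of the same demethylation complex, had 5.48 CPM in KO1, 15.4 CPM in KO2 and 13.4 CPM in NC and was 2.45-fold lower (1.99 to 3.02) in KO1 than NC. It has a near-identical pseudogene, and 13.6% of its estimated counts fell on transcripts annotated as protein-coding, so its value is uncertain. NSDHL, the dehydrogenase that acts between MSMO1 and HSD17B7, went the other way with 76.9 CPM in KO1, 58.3 CPM in KO2 and 40.0 CPM in NC. Its KO1 level was 1.92-fold above NC, just under the line, and it was the one synthesis gene with its highest level in KO1.

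CYP51A1, the demethylase that acts first on lanosterol, was also not lower in the knockout columns, with 95.8 CPM in KO1, 132 CPM in KO2 and 79.3 CPM in NC. EBP, the sterol isomerase, had 56.7 CPM in KO1, 93.9 CPM in KO2 and 52.8 CPM in NC, and SC5D, the desaturase that follows it, had 7.61 CPM in KO1, 22 CPM in KO2 and 12.8 CPM in NC. These 3 genes were highest in KO2. SC5D was 2.89-fold higher (2.44 to 3.43) in KO2 than KO1. The reductases that share a step, TM7SF2 and LBR (also the lamin B receptor), had 6.52, 8.28 and 6.86 CPM in KO1, KO2 and NC and 65.9, 116 and 107 CPM in KO1, KO2 and NC, and passed nothing. DHCR7, a final reductase of the pathway, had 78.8 CPM in KO1, 128 CPM in KO2 and 148 CPM in NC, 1.87-fold below NC in KO1.

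Several of these genes lie on chromosomes whose median gene was off NC. NSDHL and EBP are both on chromosome X, where the median of 477 measured genes was at a log2 ratio of 0.43 in KO1 and 0.50 in KO2 over NC. CYP51A1 is on chromosome 7, whose 723 measured genes had medians of 0.38 in KO1 and 0.37 in KO2. HMGCS1 is on chromosome 5, with medians of 0.35 and 0.30 in KO1 and KO2, and its own log2 ratio in KO1 over NC was -2.09. When each synthesis gene was set against the median of its own chromosome, 18 of 20 lay below it in KO1 with a median difference of -1.04, and 11 of 20 in KO2 with a median difference of -0.04. In KO2 over KO1, 18 of 20 lay above it, with a median difference of 0.81. The chromosome medians of KO2 and KO1 against NC were close to each other, and copy number was not measured here.

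**Figure D2:**
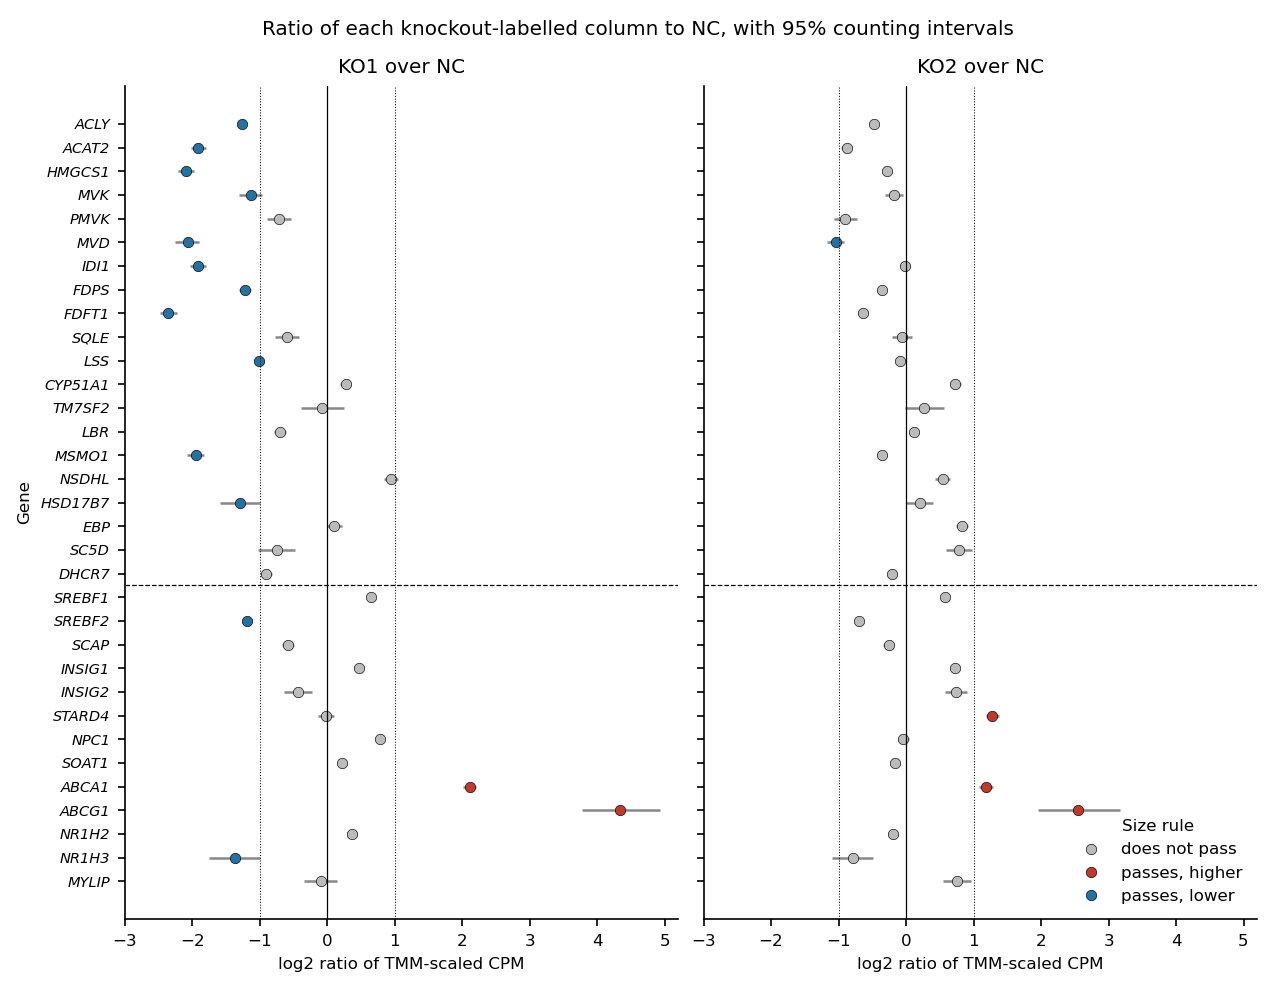
Log2 ratio of TMM-scaled CPM, KO1 over NC (left) and KO2 over NC (right), for the 20 synthesis genes (above the dashed line) and the 13 control, transport and efflux genes (below it). Bars are exact 95% intervals of the ratio, covering counting error only; dotted lines mark 2-fold; blue and red points pass the size rule. In the left panel 11 synthesis points are blue, and in the right panel MVD alone is, while ABCA1 and ABCG1 are red in both.

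The 13 genes of sterol control, transport and efflux had no common direction. In KO1 over NC, 2 of 13 passed as higher (ABCA1 and ABCG1; 15.4% of all measured genes) and 2 as lower (SREBF2 and NR1H3; 17.4%), with a median log2 ratio of 0.22. These counts are near the shares over all genes. In KO2 over NC, 3 passed as higher (ABCA1, ABCG1 and STARD4; 11.0% of all measured genes) and 0 as lower (9.98%), with a median of 0.57. In KO2 over KO1, 2 passed as higher (INSIG2 and STARD4; 14.9%) and 1 as lower (ABCG1; 11.2%), with a median of 0.25. None of the 33 genes passed against NC in opposite directions in KO1 and KO2, as 0.806% of all measured genes did. The KO1 median was -0.01 with scaling by library size alone, where the median of all genes was also lower, at -0.24.

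Among the regulators, SREBF2 was lower and SREBF1 was not. SREBF2 (chr22:41833079-41907308), whose product drives the sterol genes, had 91.8 CPM in KO1, 129 CPM in KO2 and 209 CPM in NC. The KO1 level was 2.27-fold lower (2.16 to 2.39) than NC and passed the rule, and the KO2 level was 1.61-fold lower (1.55 to 1.68) and did not. Its order of columns, lowest in KO1 and highest in NC, was that of 12 of the 20 synthesis genes and of 22.2% of all measured genes. SREBF2 is on chromosome 22, where the median gene was at a log2 ratio of -0.38 in KO1 and -0.32 in KO2. SREBF1 (chr17:17810399-17837002), itself a known LXR target, had 241 CPM in KO1, 230.4 CPM in KO2 and 155 CPM in NC, above NC by 1.56-fold in KO1 and 1.49-fold in KO2, both short of 2-fold.

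SCAP, the escort of the SREBPs, had 68.4 CPM in KO1, 85.3 CPM in KO2 and 102 CPM in NC. The INSIG proteins hold SCAP back, and INSIG1 is itself an SREBP target. INSIG1 had 129.6 CPM in KO1, 155 CPM in KO2 and 93.8 CPM in NC, so it was above NC in both knockout columns while 17 of the 20 synthesis genes were below NC in KO1. INSIG1 is on chromosome 7, whose medians are given above. INSIG2, which is less tied to SREBP activity, had 13.8 CPM in KO1, 31.0 CPM in KO2 and 18.6 CPM in NC and was 2.25-fold higher (1.97 to 2.57) in KO2 than KO1. None of SCAP, INSIG1 and INSIG2 passed against NC over all transcripts with TMM scaling. In KO1 over NC, SCAP passed as lower on deposited TPM (log2 ratio -1.47) and as higher over coding transcripts alone (2.31). Its direction in KO1 therefore depends on the measure.

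The transport and storage genes differed from one another. STARD4, a soluble carrier of sterol between membranes, had 43.0 CPM in KO1, 106 CPM in KO2 and 43.5 CPM in NC. It was 2.43-fold higher (2.27 to 2.60) in KO2 than NC and passed, whereas KO1 and NC were equal within counting error (1.01-fold, interval 0.929 to 1.10). NPC1, which passes cholesterol out of lysosomes, had 159.8 CPM in KO1, 91.0 CPM in KO2 and 93.4 CPM in NC, highest in KO1 at 1.71-fold above NC. SOAT1, which esterifies cholesterol for storage in droplets, had 141 CPM in KO1, 109 CPM in KO2 and 122 CPM in NC and passed nothing.

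**Figure D3:**
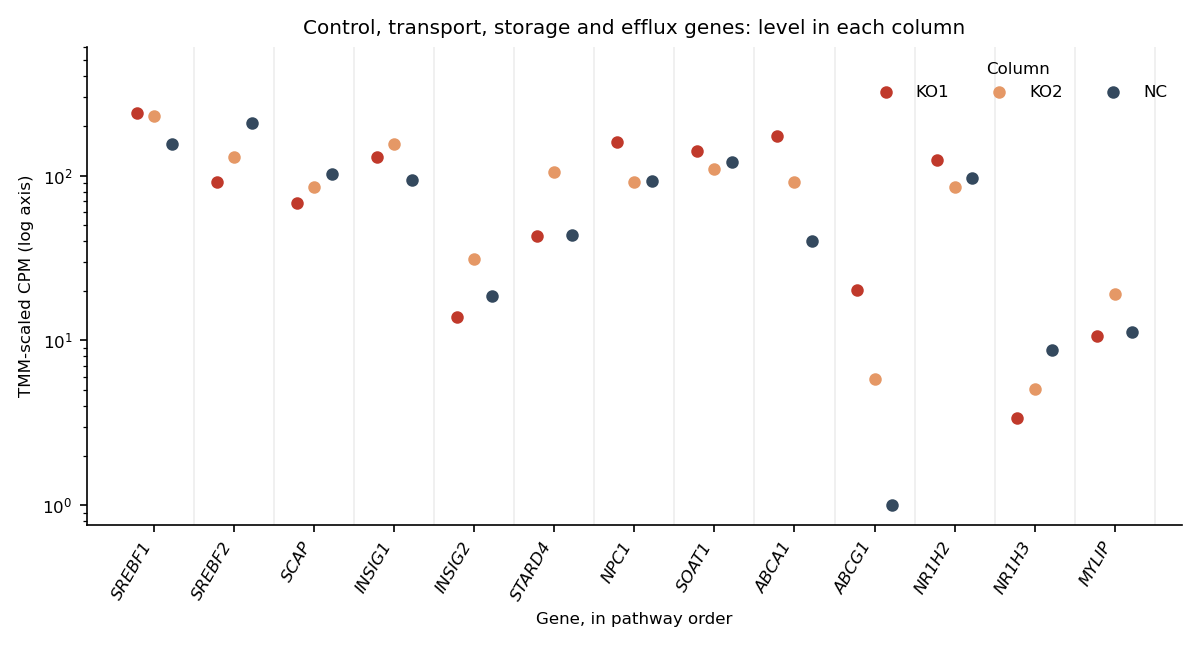
Level of each of the 13 control, transport and efflux genes on the horizontal axis, as TMM-scaled CPM on a log vertical axis; each point is 1 deposited column (KO1, KO2, NC) with no error bars. ABCA1 and ABCG1 fall in the order KO1, KO2, NC from high to low, and SREBF2 and NR1H3 in the reverse order.

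The efflux pumps were higher in both knockout columns, and in both the KO1 level exceeded the KO2 level. ABCA1, which loads cholesterol onto lipid-poor apolipoprotein (chr9:104781002-104928237), had 174 CPM in KO1, 92.0 CPM in KO2 and 40.4 CPM in NC. The KO1 level was 4.31-fold higher (4.04 to 4.61) than NC and the KO2 level 2.28-fold higher (2.13 to 2.45) than NC. Between the knockout columns, ABCA1 was 1.89-fold lower (1.80 to 1.99) in KO2 than KO1, which is short of the 2-fold line. ABCA1 is on chromosome 9, where the median gene was below NC (log2 ratio -0.26 in KO1 and -0.23 in KO2). ABCG1, which exports cholesterol to lipoprotein particles (chr21:42199689-42297244), had 20.1 CPM in KO1, 5.82 CPM in KO2 and 1.0 CPM in NC, on estimated counts of 463 in KO1, 163 in KO2 and 28 in NC. The KO1 level was 20.1-fold higher (13.7 to 30.6) than NC, the KO2 level 5.82-fold higher (3.88 to 9.03) than NC, and KO2 was 3.46-fold lower (2.89 to 4.16) than KO1. Being higher in both knockout columns, in ratios that share the NC column, was true of 6.22% of all measured genes.

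In the joint edgeR test the adjusted p was 0.310 for ABCG1 and 0.473 for ABCA1. ABCG1 was called by DESeq2 (adjusted p = 0.0118, among 306 calls or 1.79% of genes) and by edgeR without a filter on low counts (adjusted p = 0.0232, among 493 calls or 1.72% of genes). Over the 4 alternatives to the edgeR test, the adjusted p of ABCG1 lay between 0.0118 and 0.385. With 28 counts in NC, its ratio rests on the smallest count of any of the 33 genes in any column.

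The LXR genes themselves differed from each other. NR1H3, the LXR most abundant in macrophages and liver, had 3.39 CPM in KO1, 5.07 CPM in KO2 and 8.75 CPM in NC, on estimated counts of 78 in KO1, 142 in KO2 and 245 in NC, and was 2.58-fold lower (1.99 to 3.37) in KO1 than NC. NR1H2, the widely expressed LXR, had 125 CPM in KO1, 85.0 CPM in KO2 and 97.1 CPM in NC, within 1.29-fold of NC in KO1 and within 1.14-fold in KO2. MYLIP, an LXR target and ubiquitin ligase that marks lipoprotein receptors for breakdown, had 10.6 CPM in KO1, 19.0 CPM in KO2 and 11.3 CPM in NC; KO1 and NC were equal within counting error (1.07-fold, interval 0.901 to 1.27) and KO2 was the highest column. Of the 4 cholesterol genes named as LXR targets, 2 passed as higher in KO1 (ABCA1 and ABCG1), as 15.4% of all measured genes did. SREBF1 and MYLIP did not. PLTP, an LXR target of a neighbouring list described below, was lower than NC in both knockout columns.

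Compared with each other per transcript length, the genes spanned a wide range. In KO1 the lowest gene was NR1H3 at 4.2 TPM and the highest SREBF1 at 130.3 TPM, with a median over the 33 of 17.1 TPM. In KO2 the range ran from ABCG1 at 3.26 TPM to FDPS at 201 TPM with a median of 50.8 TPM, and in NC from ABCG1 at 0.57 TPM to FDPS at 242 TPM with a median of 55.6 TPM. FDPS had 86.8 TPM in KO1, 201 TPM in KO2 and 242 TPM in NC, and HMGCS1 had 12.9 TPM in KO1, 77.0 TPM in KO2 and 74.5 TPM in NC. On this scale KO1 is lower for genes in general: as log2(TPM + 1), the median of all measured genes was -0.33 in KO1 over NC and 0.04 in KO2 over NC.

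The columns also differed in which transcripts of a gene carried the estimated counts. The most abundant transcript was the same in all 3 columns for 21 of the 33 genes and differed for 12. ABCA1-202 held 99.6% in KO1, 99.0% in KO2 and 99.3% in NC, nearly all counts of that gene in every column. HMGCS1-201 held 96.8% in KO1, 43.2% in KO2 and 72.9% in NC, while HMGCS1-202 held 0% in KO1, 45.7% in KO2 and 22.2% in NC. MSMO1-201 held 74.3% in KO1, 24.7% in KO2 and 15.7% in NC, and its place in KO2 and NC was taken by MSMO1-202 with 24.4% in KO1, 71.3% in KO2 and 81.3% in NC. For both genes KO1, the column with the lowest level, had the largest share on transcript 201.

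SREBF1 had its largest share in every column on SREBF1-204, annotated as a target of nonsense-mediated decay, with 45.2% in KO1, 44.7% in KO2 and 28.2% in NC. SCAP showed the widest difference in shares among the regulators. Its protein-coding transcript SCAP-201 held 92.5% in KO1, 10.2% in KO2 and 13.0% in NC, whereas SCAP-202, annotated as a target of nonsense-mediated decay, held 0% in KO1, 58.1% in KO2 and 73.5% in NC. Over protein-coding transcripts alone the SCAP log2 ratio was therefore 2.31 in KO1 over NC, against -0.58 over all transcripts, so its direction in KO1 depends on which transcripts are counted. ABCG1-203 held 85.1% in KO1, 42.3% in KO2 and 0% in NC, and ABCG1-206 held 1.51% in KO1, 0% in KO2 and 60.7% in NC, on only 28 counts in NC. DHCR7-201 held 91.8% in KO1, 47.5% in KO2 and 24.4% in NC, and NSDHL-201 held 3.28% in KO1, 69.5% in KO2 and 7.23% in NC. In LSS the retained-intron transcript LSS-208 held 86.2% in KO1, 68.9% in KO2 and 70.9% in NC, so most LSS counts were not on a coding transcript. By exact Clopper-Pearson 95% intervals, which cover counting error only, the SCAP-201 share was 91.1% to 93.8% in KO1, 8.98% to 11.4% in KO2 and 11.8% to 14.3% in NC, and the ABCG1-206 share in NC was 40.6% to 78.5%. For a listed share of 0, a fixed limit of 3 counts of the gene's total was used in place of these intervals. That limit is 0.4% for HMGCS1-202 and 0.191% for SCAP-202 in KO1, 10.7% for ABCG1-203 in NC and 1.84% for ABCG1-206 in KO2. These shares are estimates that divide fragments among overlapping transcripts, and a switch in share without replicates may lie within the error of that division, which the table does not give.

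**Figure D4:**
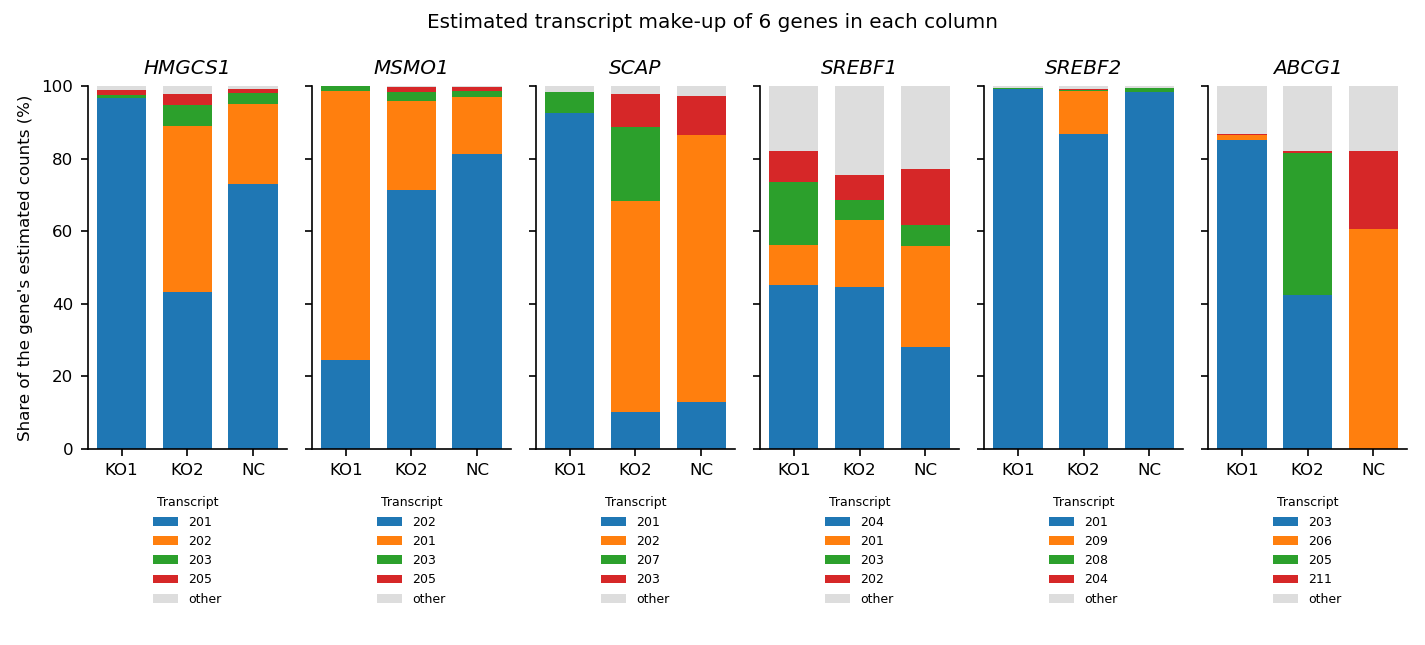
Share of each gene's estimated counts, in percent, on its 4 transcripts with the largest shares and on all others (grey), for HMGCS1, MSMO1, SCAP, SREBF1, SREBF2 and ABCG1; each stacked bar is 1 column (KO1, KO2, NC), and legend numbers are the transcript suffixes. SCAP-201 fills 92.5% of the KO1 bar, against 10.2% in KO2 and 13.0% in NC, while SREBF2-201 dominates all 3 bars.

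Neighbouring lipid lists, put together with earlier results of these data known, place these values in context. Of 13 SREBP targets, mostly of fatty acid synthesis, 0 passed as higher and 5 as lower in KO1, with a median log2 ratio of -0.83. The 5 were FADS2, FADS1, ME1, FASN and TMEM97, of which TMEM97 is not a fatty acid synthesis enzyme. In KO2, 1 passed as higher and 1 as lower, with a median of 0.32. The shares of all measured genes were 15.4% higher and 17.4% lower in KO1, and 11.0% higher and 9.98% lower in KO2. FADS2, the first desaturase for polyunsaturated fatty acids, had 16.3 CPM in KO1, 123 CPM in KO2 and 217 CPM in NC. FADS1, the desaturase that follows, had 56.4 CPM in KO1, 158 CPM in KO2 and 268 CPM in NC. ME1, which supplies NADPH, was lower in both knockout columns with 22.7 CPM in KO1, 21.1 CPM in KO2 and 86.8 CPM in NC. FASN, fatty acid synthase, had 168 CPM in KO1, 685 CPM in KO2 and 419.5 CPM in NC, so its KO2 level was above NC and its KO1 level below. FASN was chosen after its values were seen. In KO2 over KO1, 7 of the 13 passed as higher and 0 as lower, against 14.9% and 11.2% of all measured genes.

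Of 7 measured lipoprotein receptors and adaptors, 1 passed as higher and 2 as lower in KO1, with a median of -0.85, and 1 as higher and 1 as lower in KO2, with a median of 0.43. These counts, and those of the next list, are read only against the 15.4% higher and 17.4% lower in KO1, and the 11.0% and 9.98% in KO2, of all measured genes. VLDLR, which takes up triglyceride-rich particles, was higher in both knockout columns, with 116 CPM in KO1, 32.4 CPM in KO2 and 13.2 CPM in NC. LRP1, a large scavenging receptor, had 17.4 CPM in KO1, 53.2 CPM in KO2 and 90.8 CPM in NC, and SORL1, a sorting receptor, had 5.87 CPM in KO1, 17.5 CPM in KO2 and 12.9 CPM in NC. Of 10 other measured genes linked to LXR (lipid pumps, lipid enzymes and the RXR partners of LXR), 1 passed as higher and 4 as lower in KO1, and 2 as higher and 2 as lower in KO2. ABCA2, a lipid pump of intracellular membranes, had 8.65 CPM in KO1, 31.8 CPM in KO2 and 62.3 CPM in NC. NCEH1, which hydrolyses cholesterol esters, was higher in both, with 256 CPM in KO1, 278 CPM in KO2 and 87.5 CPM in NC. PLTP, the phospholipid transfer protein and a classic LXR target, was lower in both, with 0.739 CPM in KO1, 1.5 CPM in KO2 and 13.8 CPM in NC, and RXRA, the partner of LXR on DNA, had 35.3 CPM in KO1, 47.6 CPM in KO2 and 96.6 CPM in NC. ABCA1, ABCG1 and NCEH1 were thus above NC, and ABCA2, PLTP and RXRA below it, in both knockout columns.

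**Figure D5:**
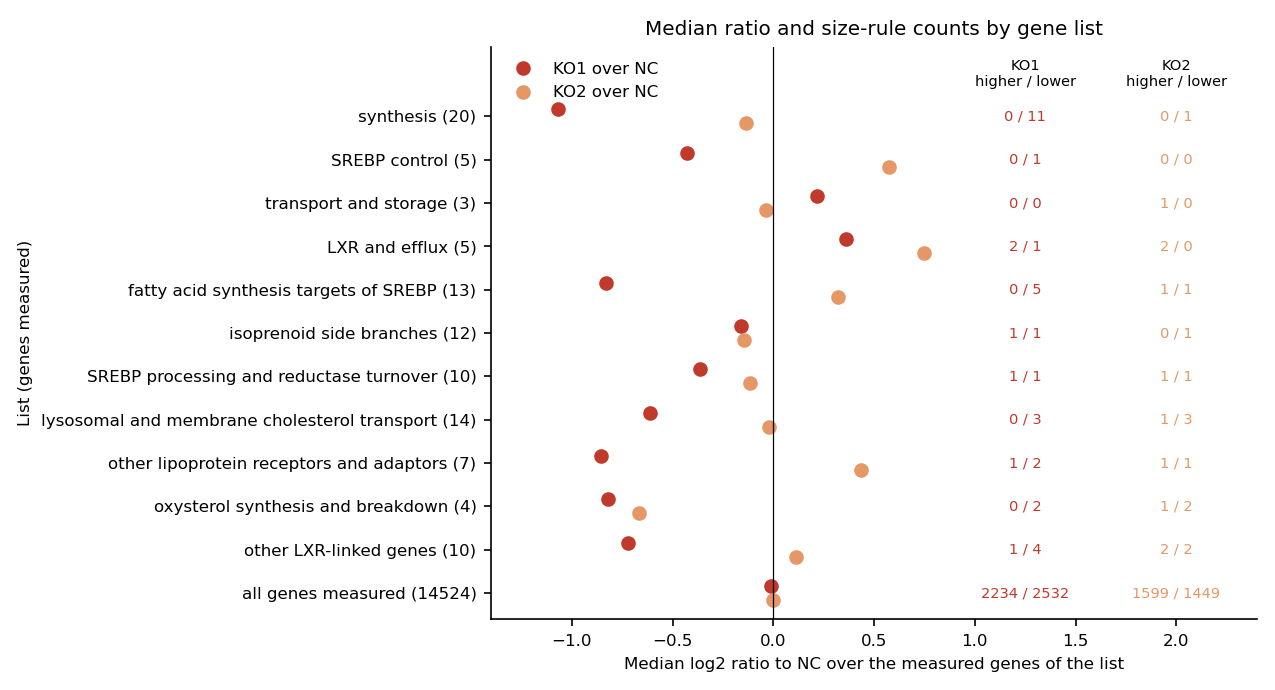
Median log2 ratio to NC over the measured genes of each list (number in brackets), for KO1 and KO2, with the number of genes that pass the size rule as higher and as lower at the right. Synthesis has the lowest KO1 median, -1.07, of the 11 lists shown, and the medians of all 14524 measured genes lie at -0.01 and 0.00.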

How the data were processed

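Per the file headers, the authors deposited counts, TPM and FPKM for 199167 transcripts, with 1 column per group. The deposited Count values were taken as estimated counts rounded up: among transcripts with small counts, 99.7% in KO1, 99.5% in KO2 and 99.5% in NC lay 0 to 1 above the count their FPKM implies (tolerance 0.05). The deposited TPM and FPKM differ by a constant within a column, and FPKM was used only for that check. Per the submitters' processing notes the tools were CASAVA, Bowtie2 and featureCounts with hg38, with no versions or roles; the tool that estimated transcript values is not given in the sources used here. Whether a column is 1 library or 2 combined is not stated, and 0 columns were left unmatched.

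Counts were summed per gene ID; 57392 IDs had a current symbol, and transcript types are those of GENCODE release 29, which places 196254 transcripts at the same position. CPM were scaled by TMM (edgeR 4.0.16, R 4.3.3; DESeq2 1.42.0 as an alternative). The size rule used a prior count of 2, Clopper-Pearson 95% intervals conditional on the summed count, and a mean of at least 1 CPM; intervals cover counting error only, since fragments are not independent molecules. The joint test used filterByExpr, Benjamini-Hochberg adjustment over all genes and robust fitting. It takes the spread of NC to be that of the knockout columns, and p-values measure only the spread between these columns, which may be technical. All 33 genes are named; from the 7 other lists (75 genes), those past the size rule in both knockout columns and up to 3 per direction by size in KO1. A few genes of the lists are not reported here. The members and lists were chosen with earlier results of these data known. Alternatives were other scalings, low-value filters, prior count, fold minimum, coding transcripts only and deposited TPM.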

Additional observations from a re-analysis of the deposited data

Results flagged for a closer look

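In 2 genes of the neighbouring lists, KO1 and KO2 passed the size rule in opposite directions from NC, as did 117 of 14524 measured genes (0.806%). The difference between the columns was not tested, since each column is single, and both ratios share the NC column. GRAMD1B, a sterol carrier at contacts between the plasma membrane and the endoplasmic reticulum, had 1.96 CPM in KO1, 14.7 CPM in KO2 and 5.54 CPM in NC, log2 ratios of -1.47 in KO1 over NC and 1.39 in KO2 over NC. ABCA7, a lipid pump related to ABCA1, had 5.30 CPM in KO1, 23.3 CPM in KO2 and 11.5 CPM in NC, log2 ratios of -1.11 in KO1 and 1.01 in KO2. None of the 33 cholesterol genes passed in opposite directions.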

How the results depend on the processing

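No paired analysis was possible because the columns carry no replicate number. Leaving out a column leaves no test: the median over the synthesis genes of the log2 ratio averaged over both knockout columns was -0.60 and lay between -1.07 and -0.13 without 1 knockout column, so it rests mostly on KO1, and over the control, transport and efflux genes it was 0.33 and lay between 0.22 and 0.57.

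DESeq2 size factors, no filter, a 5 CPM minimum and a prior count of 0.5 changed 0 calls of the 33 genes, and no called ratio changed sign. With scaling by library size alone the median of all genes was -0.24 in KO1 over NC and 0.30 in KO2 over KO1 (-0.01 and 0.04 with TMM); against that, the medians were -1.30 (synthesis) and -0.011 (control, transport and efflux) in KO1 over NC, and 1.15 and 0.52 in KO2 over KO1, where 13 synthesis genes passed as higher. The split of all genes in KO1 over NC was then 1647 higher and 3292 lower, against 2234 and 2532 with TMM, and in KO2 over KO1 it was 3128 higher and 1056 lower, against 2164 and 1624. With deposited TPM (median of all genes -0.33 in KO1 over NC and 0.39 in KO2 over KO1) the medians were -1.28 and -0.14 in KO1, -0.0077 and 0.72 in KO2, and 1.24 and 0.45 in KO2 over KO1, with 0 synthesis genes lower in KO2, and 14 synthesis and 4 other genes higher in KO2 over KO1; the split was 976 higher and 3118 lower in KO1 over NC, and 2841 and 584 in KO2 over KO1. TMM over nuclear protein-coding genes gave 1 synthesis gene higher in KO1 (NSDHL) and ended the KO1 call of LSS and the KO2 over KO1 calls of ACAT2 and MVD. A fold of at least 1.5 gave 1 synthesis and 4 other genes higher in KO1; 3 synthesis genes higher, 4 lower, 6 others higher and 2 lower in KO2; and 15 synthesis genes higher and 3 others lower in KO2 over KO1. Coding transcripts alone gave 1 synthesis gene higher in KO1, 2 lower in KO2, 2 others lower in KO2 over KO1, and medians of 0.32 (others, KO1), 0.055 (others, KO2) and 0.76 (synthesis, KO2 over KO1). The joint test called 1 of the 33 genes, ABCG1, by DESeq2 (306 calls in all) and without a filter (493 calls in all), where edgeR called 27 genes in all; it called 15 with DESeq2 size factors and 6 over nuclear protein-coding genes, none of the 33 in either. Synthesis genes lower in KO1 numbered 11 in the main setting and 12 by library size alone, with DHCR7 added. They numbered 13 on deposited TPM, with DHCR7 and PMVK added, and 16 at a fold of at least 1.5. Over all measured genes the lower calls in these 3 alternatives numbered 3292, 3118 and 4071. Depth limits ABCG1 in NC (28 counts) and NR1H3 in KO1 (78 counts).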

Other observations

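The branches that leave the pathway at farnesyl pyrophosphate were described in the same way, without a test. Of 12 genes of isoprenoid side branches (prenyl transfer, ubiquinone and dolichol), 1 passed as higher and 1 as lower in KO1, and 0 as higher and 1 as lower in KO2, with median log2 ratios of -0.16 and -0.14. Of all measured genes, 15.4% passed as higher and 17.4% as lower in KO1, and 11.0% as higher and 9.98% as lower in KO2, and the counts of the small lists here and below are read only against these. PDSS1, which builds the ubiquinone tail, was lower in both knockout columns, with 9.30 CPM in KO1, 13.1 CPM in KO2 and 30.1 CPM in NC. RABGGTB, a subunit of the enzyme that prenylates RAB proteins, had 129 CPM in KO1, 81.3 CPM in KO2 and 60.6 CPM in NC. Of 10 genes of SREBP processing and reductase turnover, SYVN1, a ubiquitin ligase of the endoplasmic reticulum, was higher in both with 109 CPM in KO1, 104 CPM in KO2 and 50 CPM in NC, and PAQR3, a Golgi anchor of SCAP, was lower in both with 6.04 CPM in KO1, 8.39 CPM in KO2 and 37.4 CPM in NC.

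Of 14 genes of lysosomal and membrane cholesterol transport, 0 passed as higher and 3 as lower in KO1, and 1 as higher and 3 as lower in KO2, with medians of -0.61 and -0.02. The oxysterol-binding relatives OSBPL1A and OSBPL5 were lower in both knockout columns, OSBPL1A with 3.96 CPM in KO1, 13.4 CPM in KO2 and 27.4 CPM in NC and OSBPL5 with 5.52 CPM in KO1, 13.7 CPM in KO2 and 33.7 CPM in NC. Of 4 measured genes listed under oxysterol synthesis and breakdown, 0 passed as higher and 2 as lower in KO1. In KO2, 1 passed as higher and 2 as lower. EPHX1, an epoxide hydrolase not specific to sterols, was lower in both with 21.1 CPM in KO1, 30.6 CPM in KO2 and 69.4 CPM in NC. CYP27A1, which makes an oxysterol in mitochondria, had 6.09 CPM in KO1, 11.6 CPM in KO2 and 13.8 CPM in NC.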
